A study of Homo sapiens with 30 samples.

Results

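Cyclins, cyclin-dependent kinases (CDKs) and the CDC25 phosphatases that activate CDKs were followed through RNA-seq of LNCaP cells, an established line from human prostate cancer that responds to androgen. The members were chosen by gene symbol: 41 genes of the 26443 read from the expression tables. They fall into 16 cell cycle members, 15 members that act in transcription and 10 others. RNA was sequenced from 30 libraries in 10 groups of 3. In the pLKO experiment, cells were infected for 5 days with an shRNA against USP7 (a deubiquitinase), BUB3 (a spindle checkpoint protein) or FOXA1 (a pioneer transcription factor of luminal prostate cells), or with a pLKO control; these groups are called shUSP7, shBUB3, shFOXA1 and pLKO. In the siRNA experiment, cells were transfected for 4 days with siRNA against EZH2 (the methyltransferase of polycomb complex PRC2) or with control siRNA, here siEZH2 and siCtrl. In the pGIPZ experiment, cells were infected with an shRNA against FOXA1 together with HA-tagged FOXA1 carrying the K295A change, HA-tagged wild-type FOXA1 or a control, or with control shRNA, here shFoxA1 + K295A, shFoxA1 + WT, shFoxA1 and pGIPZ. The labels give 5 days for 11 of these 12 libraries, and their sample range does not cover the third shFoxA1 + K295A library. All groups were bulk RNA of 1 cell line. No label tells if the 3 libraries of a group came from separate cultures; the p-values therefore rest on a spread between libraries that may be technical. In bulk RNA, fewer cells in a cell cycle phase and less RNA per cell cannot be told apart.

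A cyclin is the regulatory subunit that switches on a CDK. D-type cyclins with CDK4 or CDK6 act in G1, where they phosphorylate the retinoblastoma protein. E-type cyclins with CDK2 act at entry into S phase, cyclin A2 works with CDK2 and CDK1 in S and G2, and B-type cyclins with CDK1 drive mitosis. CDC25 phosphatases remove the inhibitory phosphates that hold CDKs off. A second branch of the family acts on RNA polymerase II. CDK7 and cyclin H belong to TFIIH and also form the CDK-activating kinase. Both are counted here as transcriptional members. CDK8 or CDK19 and cyclin C belong to the Mediator kinase module, and CDK9 with cyclin T to P-TEFb, which releases paused polymerase. CDK12 and CDK13 with cyclin K act during elongation, and CDK11 with L-type cyclins acts in transcription and splicing.

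Values are FPKM in the pLKO and siRNA experiments and RPKM in the pGIPZ experiment, both scaled by gene length and library total. Fold changes are differences of log2(value + 1), which understates the change of members near or under 1, and are given with the standard error (SE) of the fit. A gene was called at an adjusted p under 0.05 in limma's moderated, two-sided test with Benjamini-Hochberg adjustment over all genes of the fit, and "fell", "rose", "lower" and "higher" are used of called genes. With 3 libraries against 3, the smallest p of an exact permutation test is 0.1. Of the 41 members, 37 reached a value of 1 in 3 libraries and were tested in the pLKO experiment, 38 in the siRNA experiment and 37 in the pGIPZ experiment. CCND2, CCNJ and CDK6 failed this filter in all 3 experiments, and CDK18 passed it only in the siRNA experiment.

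Each targeted gene was lower in its own group. USP7 had 6.13 to 6.38 FPKM in shUSP7 libraries, against 27.6 to 28.6 FPKM in pLKO libraries. BUB3 had 3.47 to 4.70 FPKM in shBUB3 libraries, against 33.7 to 38.3 FPKM in pLKO libraries. FOXA1 had 57.7 to 60.9 FPKM in shFOXA1 libraries, against 115.6 to 115.9 FPKM in pLKO libraries. EZH2 had 4.83 to 5.08 FPKM in siEZH2 libraries, against 11.7 to 13.5 FPKM in siCtrl libraries. In the same experiment FOXA1 had 86.7 to 97.2 FPKM in siEZH2 libraries, against 130.4 to 136.5 FPKM in siCtrl libraries. EZH2 was also lower in all 3 pLKO knockdowns, at 4.31 to 6.51 FPKM, against 12.3 to 12.8 FPKM in pLKO libraries. BUB3 was lower outside its own group too, with log2 fold changes of -1.17 in shFOXA1, -0.34 in shUSP7 and -0.20 in siEZH2. USP7 was lower in shFOXA1 (-0.35) and higher in shBUB3 (0.20). Each of these BUB3 and USP7 values had an adjusted p of at most 0.049 by limma. Some targets thus changed in knockdowns of other genes, USP7 in opposite directions. These values are without rescaling of the libraries. Rescaling, described below, moved the median over all genes by 0.13 and 0.22 in siEZH2 and by 0.015 and -0.16 in shBUB3. In shFoxA1 against pGIPZ, EZH2 (-0.026) and BUB3 (-0.047) were not called and USP7 was higher (0.22). In the pGIPZ experiment FOXA1 had 149 to 155 RPKM in shFoxA1 + K295A and 151 to 152 RPKM in shFoxA1 + WT libraries, 80.4 to 84.0 RPKM in shFoxA1 libraries and 129.6 to 134 RPKM in pGIPZ libraries. The third shBUB3 library stood apart: its summed FPKM was 367614, against 235344 to 306578 in the other 17 libraries with FPKM. All 8 luminal prostate markers reached a value of 1, and their sum was 1289 to 1346, 1529 to 1772 and 1544 to 1625 FPKM in shUSP7, shBUB3 and shFOXA1 libraries, against 2229 to 2279.6 FPKM in pLKO libraries, and 569 to 671 FPKM in siEZH2 libraries, against 2273 to 2356 FPKM in siCtrl libraries. In the pGIPZ experiment it was 1809 to 1834, 1877 to 1930.2 and 2135 to 2171 RPKM in shFoxA1 + K295A, shFoxA1 + WT and shFoxA1 libraries, against 2586 to 2629 RPKM in pGIPZ libraries. Of 12 basal, stromal, immune and endothelial markers, 5 reached 1 in some library and none was at 0 in every library. Their sums per list stayed under 15 in every group but the immune markers in shFoxA1 libraries, at 32.1 to 34.7 RPKM, against 11.7 to 14.3 RPKM in pGIPZ libraries. The stromal markers summed to 9.95 to 13.3 FPKM in siEZH2 libraries, against 2.87 to 3.62 FPKM in siCtrl libraries. The part of these marker levels in the results was not tested.

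In the control libraries the most abundant member was CCNI, cyclin I, with 209 to 212 FPKM in pLKO, 184 to 188 FPKM in siCtrl and 145 to 149.7 RPKM in pGIPZ libraries. CCND1, cyclin D1, came next, with 81.8 to 87.0, 125 to 135 and 74.9 to 79.1 in the same order. The mitotic cyclin CCNB1 had 59.4 to 63.4 FPKM in pLKO libraries and its kinase CDK1 33.7 to 36.7 FPKM. Transcriptional kinases were lower on this length-scaled measure: CDK9 had 20.8 to 22.3 FPKM in pLKO libraries, CDK12 10.4 to 11.3 FPKM and CDK7 6.35 to 6.88 FPKM. Among the G1 genes CCND1 and CDK4 carried most of the message of their families. CCND1 supplied 85.7% ± 0.18 of the summed D-type cyclin FPKM in pLKO libraries (SD, n = 3) and 95.3% ± 0.27 in siCtrl libraries, and 77.5% ± 0.17 of the RPKM sum in pGIPZ libraries, where CCND3 had 21.5 to 23.0 RPKM. CDK4 supplied 99.6% ± 0.042 of the CDK4 and CDK6 sum in pLKO libraries and 99.4% ± 0.087 in pGIPZ libraries. CCND2 stayed under 0.1 in every library and CDK6 under 0.6.

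The cell cycle members fell together in all 4 knockdowns that have an FPKM table, while the transcriptional members moved in both directions. In shUSP7 against pLKO libraries, 12 of 14 tested cell cycle members were lower and 1 was higher, with a median log2 fold change of -1.43. Of 15 transcriptional members, 3 were lower and 4 higher, with a median of 0.12. Over all genes tested in shUSP7 against pLKO, 33.0% were lower and 29.1% higher, with a median of -0.019. In shBUB3 against pLKO libraries, 13 of 14 cell cycle members were lower and none was higher (0), with a median of -1.62; 2 of 15 transcriptional members were lower and 6 higher, with a median of 0.10. The shares of all genes were 32.0% lower and 33.3% higher, around a median of 0.0071. In shFOXA1 against pLKO libraries, 13 of 14 cell cycle members were lower and 1 was higher, with a median of -1.54; 5 transcriptional members were lower and 6 higher, with a median of -0.0052. Here 45.1% of all genes were lower and 25.2% higher, and their median was -0.15. In siEZH2 against siCtrl libraries, 12 of 14 cell cycle members were lower and none was higher (0), with a median of -1.08; 1 transcriptional member was lower and 7 were higher, with a median of 0.18. Of all genes, 43.0% were lower and 20.3% higher, around a median of -0.16. CDC25C passed the filter only through the pLKO libraries and had to differ; without it, 11 of 13 cell cycle members were lower in shUSP7 (median -1.35), 12 of 13 in shBUB3 (median -1.39) and 12 of 13 in shFOXA1 (median -1.50), each against pLKO. The 3 pLKO comparisons share their control libraries.

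As plain sums, the cell cycle members came to 195 ± 7.11 FPKM in shUSP7, 109.7 ± 6.71 FPKM in shBUB3 and 111 ± 4.40 FPKM in shFOXA1 libraries, against 359.8 ± 9.66 FPKM in pLKO libraries (SD, n = 3 each). The transcriptional members came to 289 ± 2.94, 305 ± 11.1 and 372 ± 6.58 FPKM in shUSP7, shBUB3 and shFOXA1 libraries, against 287 ± 4.66 FPKM in pLKO libraries. In siEZH2 libraries the cell cycle sum was 258 ± 18.5 FPKM and the transcriptional sum 319.7 ± 1.48 FPKM, against 418 ± 11.8 FPKM and 247 ± 3.83 FPKM in siCtrl libraries. The transcriptional sum was above the cell cycle sum in each of these 4 knockdowns and below it in pLKO and siCtrl libraries. In the pGIPZ experiment the cell cycle sum was 386 ± 4.41, 373 ± 2.23 and 294 ± 3.96 RPKM in shFoxA1 + K295A, shFoxA1 + WT and shFoxA1 libraries, against 313 ± 3.23 RPKM in pGIPZ libraries. The transcriptional sum was 304 ± 4.41, 296 ± 1.07 and 322 ± 1.11 RPKM in the same groups, against 314 ± 2.94 RPKM in pGIPZ libraries, so the 2 sums of pGIPZ libraries differed by less than their SDs. CCND1 makes up a large part of the cell cycle sum and CCNL2 of the transcriptional sum.

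The counts of transcriptional members depended on how libraries were scaled. With median-ratio scaling they were 3 lower and 8 higher in shUSP7, 3 lower and 7 higher in shFOXA1 and 1 lower and 10 higher in siEZH2. With each library set to a common sum they were 2 lower and 2 higher in shUSP7, 2 lower and 2 higher in shBUB3, 3 lower and 7 higher in shFOXA1 and 1 lower and 11 higher in siEZH2. The cell cycle split in siEZH2 was 11 lower and 2 higher under both scalings. Over all genes, median-ratio scaling gave 3775 lower and 4175 higher of 12541 in shUSP7 and 4492 and 4205 in shFOXA1. A common sum gave 4093 and 3359 of 12615 in shUSP7, 5167 and 2663 in shBUB3 and 3937 and 4485 in shFOXA1. In siEZH2 the counts were 4046 and 3421 of 11911 with median-ratio scaling and 3357 and 4194 of 11938 at a common sum. Shares of all genes called, where given in percent, are those without rescaling. The median over all genes shifted, at a common sum, by -0.16 in shBUB3, 0.19 in shFOXA1 and 0.22 in siEZH2, and with median-ratio scaling by 0.14 in shFOXA1 and 0.13 in siEZH2. Without the third shBUB3 library, 14 of 14 cell cycle members were lower in shBUB3, and 2 transcriptional members were lower and 10 higher. Over all genes of that fit, 4297 of 12473 were lower and 4720 higher. The 14 include CDC25C, which had to differ.

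**Figure D1:**
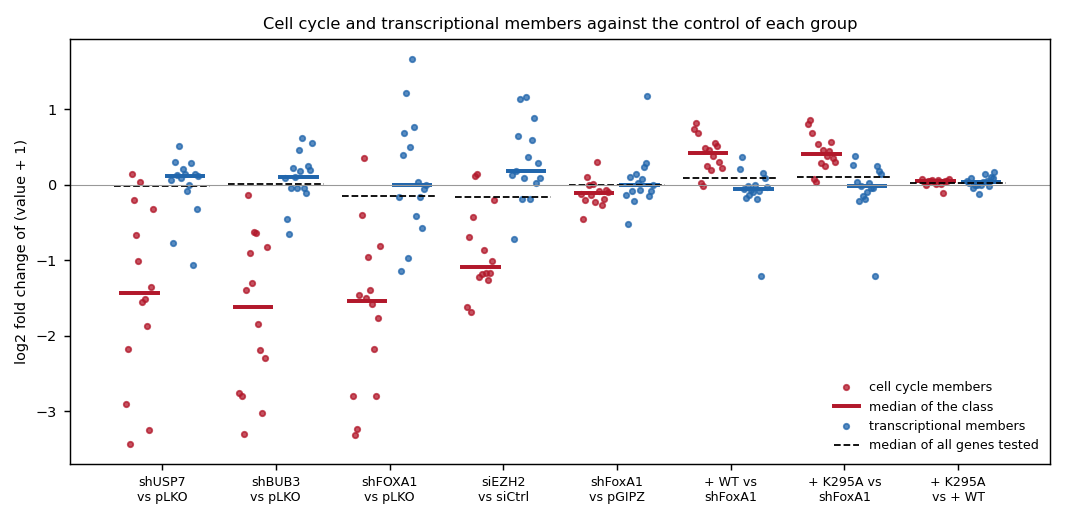
Log2 fold changes (vertical axis) of cell cycle members (red points) and transcriptional members (blue points) in 8 comparisons (horizontal axis), with thick bars at the median of each class and a dashed line at the median of all genes tested. The cell cycle medians lie between -1.62 and -1.08 in the shUSP7, shBUB3, shFOXA1 and siEZH2 comparisons and at 0.42 and 0.41 in the 2 re-expression comparisons against shFoxA1, while the transcriptional medians stay between -0.057 and 0.18.

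**Figure D2:**
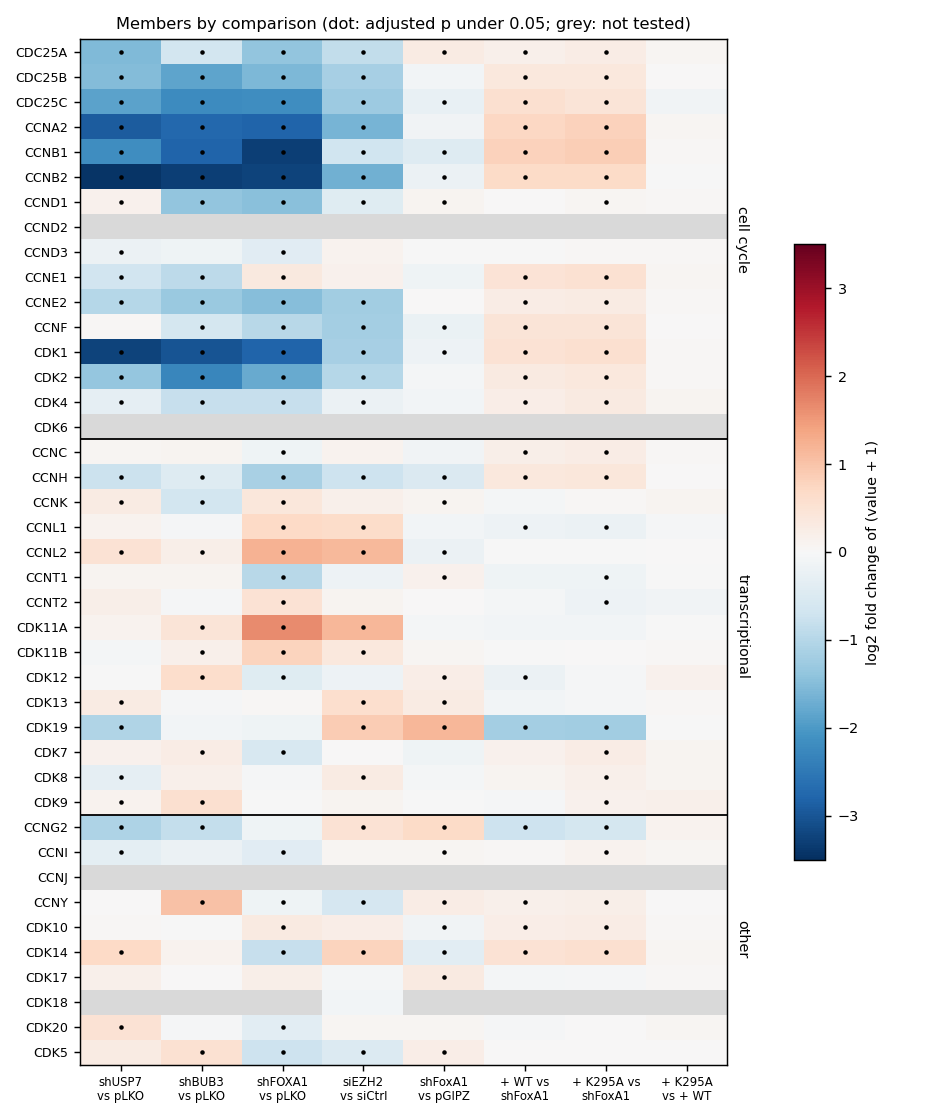
Log2 fold changes of all 41 members (rows) in 8 comparisons (columns), with colour giving the log2 fold change, a dot marking an adjusted p under 0.05 in limma and grey marking members under the filter. The rows of CCNB1, CCNB2, CCNA2, CDK1 and CDC25C are lower in the first 4 columns, and CDK11A and CCNL2 are highest in the shFOXA1 and siEZH2 columns.

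The largest falls in each pLKO knockdown were those of mitotic members. CCNB1 encodes cyclin B1 (chr5:69167010-69178245, plus strand, GENCODE 29 on GRCh38), CCNB2 cyclin B2, CCNA2 cyclin A2, and CDC25C the phosphatase that switches on the CDK1 and cyclin B pair.

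Promoters of these co-moving genes are shown first, since mitotic genes are known to carry the cell cycle homology region (CHR) near their start, often beside a CCAAT box. The RefSeq table (GRCh38.p14) held promoters of 37 of the 41 members; CCND1, CCND2, CCNE2 and CDK2 were not in it. Each line gives the 150 bases before a listed start, on the strand of the gene: chr5:69167000-69167149 on the plus strand for CCNB1, chr15:59104996-59105145 on the plus strand for CCNB2, chr4:121823884-121824033 on the minus strand for CCNA2, chr10:60778328-60778477 on the plus strand for CDK1, chr5:138331805-138331954 on the minus strand for CDC25C, chr9:127785884-127786033 on the plus strand for CDK9 and chr1:1399336-1399485 on the minus strand for CCNL2. Capitals mark the CHR word TTTGAA, the CCAAT box word CCAAT and the E2F-type words, which are TTCCCGC or TTGGCGC, and further TTCGCGC or else TTGCCGC, each read on both strands. No capitals means that none of these letters stands in the window.
CCNB1: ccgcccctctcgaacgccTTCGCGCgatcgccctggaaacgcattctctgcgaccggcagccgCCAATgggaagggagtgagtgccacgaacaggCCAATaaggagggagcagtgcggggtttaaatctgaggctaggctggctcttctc
CCNB2: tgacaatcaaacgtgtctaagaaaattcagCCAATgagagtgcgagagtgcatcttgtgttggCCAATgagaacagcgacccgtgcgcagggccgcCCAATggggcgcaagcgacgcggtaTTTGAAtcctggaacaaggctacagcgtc
CCNA2: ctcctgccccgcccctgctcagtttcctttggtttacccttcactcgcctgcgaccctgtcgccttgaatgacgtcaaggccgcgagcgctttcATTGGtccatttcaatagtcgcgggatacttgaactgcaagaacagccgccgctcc
CDK1: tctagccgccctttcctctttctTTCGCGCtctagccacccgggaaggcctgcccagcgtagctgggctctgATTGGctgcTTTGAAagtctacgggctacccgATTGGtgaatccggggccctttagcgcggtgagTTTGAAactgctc
CDC25C: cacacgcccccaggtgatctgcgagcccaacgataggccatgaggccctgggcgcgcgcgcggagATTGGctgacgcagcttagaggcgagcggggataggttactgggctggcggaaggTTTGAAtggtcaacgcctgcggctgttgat
CDK9: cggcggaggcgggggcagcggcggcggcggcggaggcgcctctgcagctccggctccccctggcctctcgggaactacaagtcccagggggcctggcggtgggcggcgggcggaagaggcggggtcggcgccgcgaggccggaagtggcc
CCNL2: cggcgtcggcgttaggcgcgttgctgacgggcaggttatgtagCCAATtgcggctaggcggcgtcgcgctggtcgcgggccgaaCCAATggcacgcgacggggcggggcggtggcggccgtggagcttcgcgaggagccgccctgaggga

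The CHR word lies 29 bases before the start of CCNB2, 30 before that of CDC25C, and 69 and 13 before that of CDK1. For CDC25C this is 1 of 4 listed starts and for CDK1 1 of 2, chosen because the word lies near them. CDK9 and CCNL2 were chosen from the transcriptional branch after the letters were seen, to show a promoter with none of the words and one with CCAAT boxes. Within the 250 bases before any listed start, the CHR word was present in 4 of 12 cell cycle members in the table, 2 of 15 transcriptional members and 4372 of 27166 genes, or 16.09%. CCAAT was present in 9 of 12 cell cycle members, 7 of 15 transcriptional members and 37.04% of all genes. An E2F-type word was present in 5 of 12 cell cycle members, 3 of 15 transcriptional members and 12.91% of all genes. These matches are descriptions of letters, not of binding. Only the letters TTTGAA were searched for the CHR, so any other form of it was not counted. The CCNB1 and CCNA2 windows hold no TTTGAA and were not searched for other forms.

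CCNB1 had 12.7, 12.3 and 13.7 FPKM in shUSP7 libraries, 6.95, 8.40 and 8.85 FPKM in shBUB3 libraries, 5.22, 5.47 and 5.28 FPKM in shFOXA1 libraries, against 63.4, 61.8 and 59.4 FPKM in pLKO libraries. CDK1, the kinase of mitosis (chr10:60778331-60794852, plus strand), had 2.82, 2.75 and 2.75 FPKM in shUSP7 libraries, 2.90, 3.89 and 3.46 FPKM in shBUB3 libraries, 4.08, 4.03 and 4.44 FPKM in shFOXA1 libraries, against 34.2, 36.7 and 33.7 FPKM in pLKO libraries. All 9 knockdown libraries lay below all 3 pLKO libraries for both genes. CCNB1 fell by 2.17 in shUSP7, 2.79 in shBUB3 and 3.31 in shFOXA1 on the log2 scale (SE 0.074 each, adjusted p at most 6.6e-10). CDK1 fell by 3.25, 3.03 and 2.79 in the same order (SE 0.076, adjusted p at most 9.1e-11), leaving 7.97%, 9.80% and 12.01% of the pLKO mean. CCNB1 was lowest in shFOXA1 and CDK1 lowest in shUSP7. Directly against shBUB3, CCNB1 was -0.51 in shFOXA1 and CDK1 -0.22 in shUSP7. At a common sum these were -0.14 and -0.076, not called (adjusted p = 0.072 and 0.47 by limma). The CDK1 call was also lost without shBUB3 replicate 2 and without shUSP7 replicate 2 or 3 (log2 fold changes -0.22 to -0.14, adjusted p 0.06 to 0.099).

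CCNA2 had 1.48, 1.27 and 1.53 FPKM in shUSP7 libraries, 1.59, 1.92 and 1.52 FPKM in shBUB3 libraries, 1.53, 1.67 and 1.63 FPKM in shFOXA1 libraries, against 17.4, 17.6 and 16.3 FPKM in pLKO libraries. CCNB2 had 1.73, 1.87 and 1.64 FPKM in shUSP7 libraries, 1.90, 2.01 and 2.14 FPKM in shBUB3 libraries, 1.85, 2.29 and 2.35 FPKM in shFOXA1 libraries, against 28.2, 29.9 and 28.1 FPKM in pLKO libraries. No knockdown library of either cyclin reached the pLKO libraries. The log2 fold changes in shUSP7, shBUB3 and shFOXA1 were -2.90, -2.76 and -2.80 for CCNA2 and -3.44, -3.30 and -3.24 for CCNB2 (SE 0.071 and 0.070, adjusted p at most 9.6e-11 and 6.5e-11). CDC25C had 0.550, 0.738 and 0.587 FPKM in shUSP7 libraries, 0.343, 0.313 and 0.258 FPKM in shBUB3 libraries, 0.193, 0.289 and 0.493 FPKM in shFOXA1 libraries, against 4.57, 5.20 and 5.12 FPKM in pLKO libraries. It was under 1 FPKM in all knockdown libraries; its log2 fold changes were -1.88, -2.19 and -2.17 (SE 0.089), and -2.81, -3.65 and -3.63 with a pseudocount of 0.1. The other 2 CDC25 genes fell as well. CDC25B, which acts early in mitotic entry, had 3.80, 3.89 and 4.34 FPKM in shUSP7 libraries, 2.58, 3.10 and 3.19 FPKM in shBUB3 libraries, 3.51, 3.89 and 3.86 FPKM in shFOXA1 libraries, against 13.4, 12.7 and 13.6 FPKM in pLKO libraries. CDC25A, which acts at the G1/S transition and later, had 1.31, 1.02 and 1.11 FPKM in shUSP7 libraries, 3.00, 3.19 and 3.01 FPKM in shBUB3 libraries, 1.58, 1.33 and 1.30 FPKM in shFOXA1 libraries, against 5.94, 5.82 and 4.29 FPKM in pLKO libraries. CDC25B fell in all 3 knockdowns (-1.51, -1.85 and -1.58), whereas CDC25A was -0.63 in shBUB3 (SE 0.10, adjusted p = 0.00018) beside -1.56 in shUSP7 and -1.39 in shFOXA1. CCNF, cyclin F, a substrate adaptor of a ubiquitin ligase that binds no CDK, had 9.24, 9.96 and 9.20 FPKM in shUSP7 libraries, 5.89, 5.32 and 5.67 FPKM in shBUB3 libraries, 4.07, 4.25 and 4.41 FPKM in shFOXA1 libraries, against 9.31, 9.50 and 8.77 FPKM in pLKO libraries. It fell by 0.62 in shBUB3 and 0.96 in shFOXA1, while shUSP7 overlapped pLKO at 0.038 (SE 0.056, adjusted p = 0.58).

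These genes fell in siEZH2 as well. CCNB1 had 37.7, 29.4 and 29.03 FPKM in siEZH2 libraries, against 47.9, 54.2 and 53.7 FPKM in siCtrl libraries. CCNB2 had 10.0, 7.73 and 7.34 FPKM in siEZH2 libraries, against 28.1, 29.7 and 29.02 FPKM in siCtrl libraries, and CCNA2 had 6.51, 4.84 and 5.38 FPKM in siEZH2 libraries, against 19.0, 21.0 and 17.4 FPKM in siCtrl libraries. Both pairs of groups were separate, as were those of CCNB1, whose first siEZH2 library was the highest of its group. CDK1 had 21.0, 17.8 and 14.2 FPKM in siEZH2 libraries, against 38.4, 42.7 and 40.2 FPKM in siCtrl libraries. CDC25C had 1.34, 1.52 and 1.55 FPKM in siEZH2 libraries, against 4.95, 4.86 and 4.98 FPKM in siCtrl libraries. The log2 fold changes were -0.69 for CCNB1 (SE 0.10, adjusted p = 0.00021), -1.69 for CCNB2, -1.62 for CCNA2, -1.17 for CDK1 and -1.27 for CDC25C (adjusted p at most 1.6e-05 for these 4). CDC25A, CDC25B and CCNF were -0.86, -1.16 and -1.18. With each library set to a common sum CCNB1 was -0.44. Within the B-type pair, CCNB1 supplied 88.0% ± 1.3 of the summed FPKM in shUSP7 libraries, against 68.2% ± 0.95 in pLKO libraries, and 79.3% ± 0.44 in siEZH2 libraries, against 64.2% ± 1.0 in siCtrl libraries (SD, n = 3 each).

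**Figure D3:**
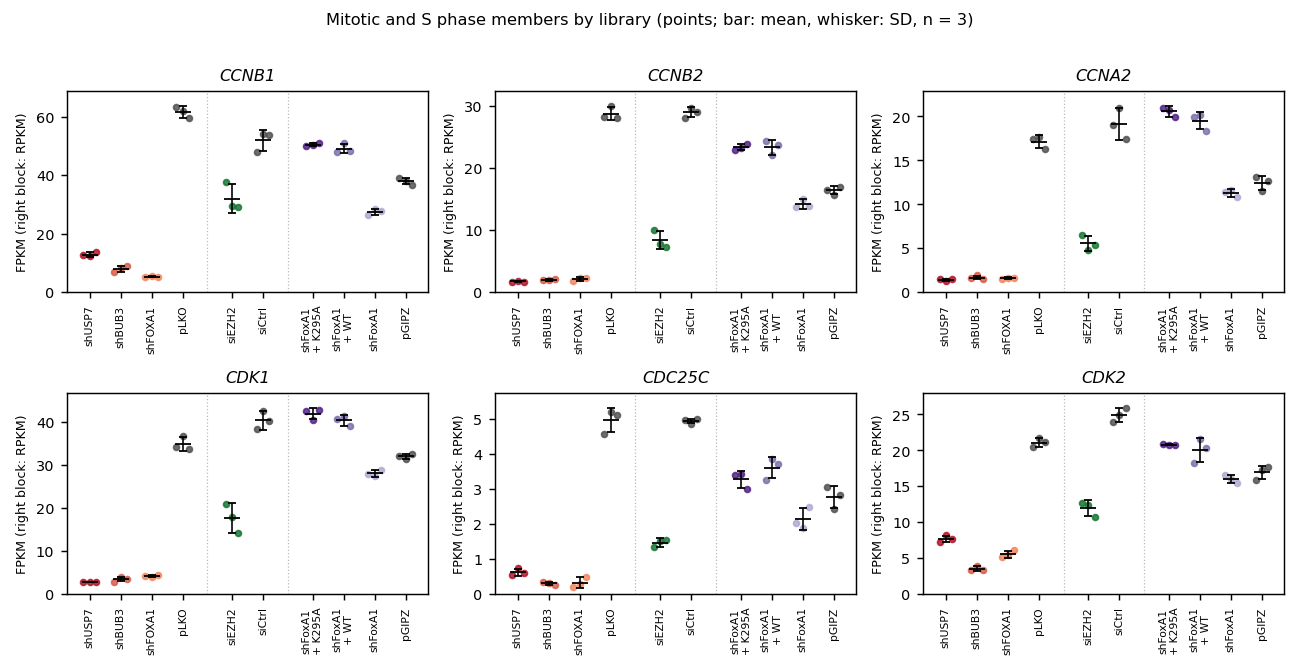
Levels of 6 members (CCNB1, CCNB2, CCNA2, CDK1, CDC25C and CDK2; vertical axes, FPKM in the pLKO and siRNA experiments and RPKM in the pGIPZ experiment, from 0) in the 10 groups (horizontal axis), with points for libraries, bars for the mean and whiskers for the SD (n = 3). In each panel the shUSP7, shBUB3 and shFOXA1 points lie below all pLKO points and the siEZH2 points below all siCtrl points.

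CDK2, the kinase of cyclins E and A (chr12:55966769-55972784, plus strand), had 7.26, 8.18 and 7.61 FPKM in shUSP7 libraries, 3.30, 3.91 and 3.38 FPKM in shBUB3 libraries, 5.10, 5.38 and 6.07 FPKM in shFOXA1 libraries, against 20.4, 21.7 and 21.2 FPKM in pLKO libraries. It fell by 1.35 in shUSP7, 2.29 in shBUB3 and 1.76 in shFOXA1 (SE 0.072, adjusted p at most 2.4e-08), with the lowest level in shBUB3. With siRNA, CDK2 had 12.7, 12.5 and 10.7 FPKM in siEZH2 libraries, against 24.0, 25.0 and 25.9 FPKM in siCtrl libraries, a fall of 1.01 (SE 0.082, adjusted p = 3.5e-06). Exons of CDK2 overlap PMEL on the opposite strand in GENCODE 29, and the labels do not say whether strand was kept.

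The 2 E-type cyclins, which bind CDK2 at S phase entry, parted from each other. CCNE1 (chr19:29811898-29824308, plus strand) had 5.32, 4.97 and 5.58 FPKM in shUSP7 libraries, 4.58, 3.87 and 4.63 FPKM in shBUB3 libraries, 11.1, 11.6 and 12.7 FPKM in shFOXA1 libraries, against 9.69, 8.53 and 8.84 FPKM in pLKO libraries. It fell in shUSP7 (-0.67) and shBUB3 (-0.90) and rose in shFOXA1 (0.35, SE 0.075, adjusted p = 0.0013, 0.56 at a common sum), with no overlap with pLKO in any of them. CCNE2 had 2.90, 2.56 and 2.80 FPKM in shUSP7 libraries, 1.83, 2.52 and 1.85 FPKM in shBUB3 libraries, 1.67, 1.64 and 1.67 FPKM in shFOXA1 libraries, against 6.37, 6.88 and 6.39 FPKM in pLKO libraries. It fell in all 3 (-1.01, -1.31 and -1.50, SE 0.082, adjusted p at most 8.2e-07). CCNE1 therefore supplied 87.6% ± 0.71 of the summed E-type FPKM in shFOXA1 libraries, against 57.9% ± 2.5 in pLKO libraries (SD, n = 3 each). The sum itself was 13.5 ± 0.81 FPKM in shFOXA1, 8.05 ± 0.45 FPKM in shUSP7 and 6.43 ± 0.047 FPKM in shBUB3 libraries, against 15.6 ± 0.43 FPKM in pLKO libraries. In the siRNA experiment CCNE1 had 11.3, 11.6 and 13.5 FPKM in siEZH2 libraries, against 10.0, 11.2 and 11.6 FPKM in siCtrl libraries, and the groups overlapped (0.14, SE 0.091, adjusted p = 0.21). Under both scalings CCNE1 was called higher in siEZH2. CCNE2 had 3.55, 3.51 and 3.16 FPKM in siEZH2 libraries, against 8.57, 10.6 and 8.68 FPKM in siCtrl libraries, a fall of 1.22 (SE 0.098, adjusted p = 3.2e-06). The CCNE1 share was 78.0% ± 2.7 in siEZH2 libraries, against 54.2% ± 2.9 in siCtrl libraries.

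Cyclin D1 separated shUSP7 from the other pLKO knockdowns. CCND1 (chr11:69641087-69654474, plus strand) had 89.9, 92.9 and 97.3 FPKM in shUSP7 libraries, 32.7, 31.2 and 31.3 FPKM in shBUB3 libraries, 29.6, 29.9 and 30.9 FPKM in shFOXA1 libraries, against 87.0, 85.5 and 81.8 FPKM in pLKO libraries. It fell by 1.39 in shBUB3 and 1.46 in shFOXA1 (SE 0.047, adjusted p at most 4.9e-10). In shUSP7 it was 0.14 (adjusted p = 0.024), a call lost without pLKO replicate 2 or 3 and without shUSP7 replicate 2 or 3 (log2 fold changes 0.11 to 0.14, adjusted p 0.051 to 0.1) and with a common sum (0.13). With siRNA, CCND1 had 104, 91.4 and 97.3 FPKM in siEZH2 libraries, against 135, 135 and 125 FPKM in siCtrl libraries, a fall of 0.43 (SE 0.071, adjusted p = 0.00042) that measured -0.28 with median-ratio scaling and -0.18 at a common sum. CCND3, cyclin D3, had 12.2, 11.8 and 12.5 FPKM in shUSP7 libraries, 12.2, 11.7 and 14.6 FPKM in shBUB3 libraries, 9.78, 10.9 and 10.9 FPKM in shFOXA1 libraries, against 14.3, 14.5 and 13.7 FPKM in pLKO libraries. The only fall with no library dependence was in shFOXA1 (-0.40, SE 0.074, adjusted p = 0.0005), of -0.24 and -0.19 under the 2 scalings. In shUSP7 it was -0.20, a call lost without pLKO replicate 1 or 2 and without shUSP7 replicate 1, 2 or 3 (log2 fold changes -0.22 to -0.18, adjusted p 0.05 to 0.1) and with median-ratio scaling (-0.15). In shBUB3 it was -0.14 (adjusted p = 0.12), and -0.23 (adjusted p = 0.0021) without the third shBUB3 library, whose 14.6 FPKM was the highest of the group. CCND3 had 7.50, 6.20 and 7.76 FPKM in siEZH2 libraries, against 6.81, 6.25 and 6.49 FPKM in siCtrl libraries, which overlapped (0.11, adjusted p = 0.32). It was called higher in siEZH2 under both scalings.

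CDK4, the main partner of D-type cyclins here, had 37.6, 37.9 and 41.8 FPKM in shUSP7 libraries, 24.3, 25.3 and 33.2 FPKM in shBUB3 libraries, 26.9, 26.7 and 28.8 FPKM in shFOXA1 libraries, against 48.0, 51.3 and 47.7 FPKM in pLKO libraries. It fell by 0.82 in shBUB3 and 0.81 in shFOXA1 (SE 0.097, adjusted p at most 1.8e-05), and was -0.32 in shUSP7 (adjusted p = 0.013), a call lost without pLKO replicate 2 (log2 fold change -0.29, adjusted p 0.051). In the siRNA experiment it had 45.9, 44.6 and 41.5 FPKM in siEZH2 libraries, against 48.6, 51.8 and 52.2 FPKM in siCtrl libraries. The groups did not overlap, but the call at -0.21 (adjusted p = 0.023) was lost without siCtrl replicate 2 or 3 and without siEZH2 replicate 2 or 3 (log2 fold changes -0.22 to -0.17, adjusted p 0.053 to 0.082), and the value was -0.059 with median-ratio scaling and 0.044 at a common sum. CDK6, its paralog, had 0.108, 0.123 and 0.139 FPKM in shUSP7 libraries, 0.592, 0.463 and 0.327 FPKM in shBUB3 libraries, 0.507, 0.569 and 0.590 FPKM in shFOXA1 libraries, against 0.198, 0.168 and 0.180 FPKM in pLKO libraries. Every value is under 0.6 FPKM. With no filter on low values, its log2 fold changes were 0.30 in shBUB3 (adjusted p = 0.0012), 0.40 in shFOXA1 (adjusted p = 0.00015) and -0.073 in shUSP7 (adjusted p = 0.34). With siRNA, CDK6 had 0.245, 0.166 and 0.172 FPKM in siEZH2 libraries, against 0.455, 0.490 and 0.433 FPKM in siCtrl libraries, at -0.29 (adjusted p = 0.0027). Of the CDK4 and CDK6 sum, CDK4 supplied 98.3% ± 0.70 in shBUB3 and 98.02% ± 0.12 in shFOXA1 libraries (SD, n = 3 each).

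**Figure D4:**
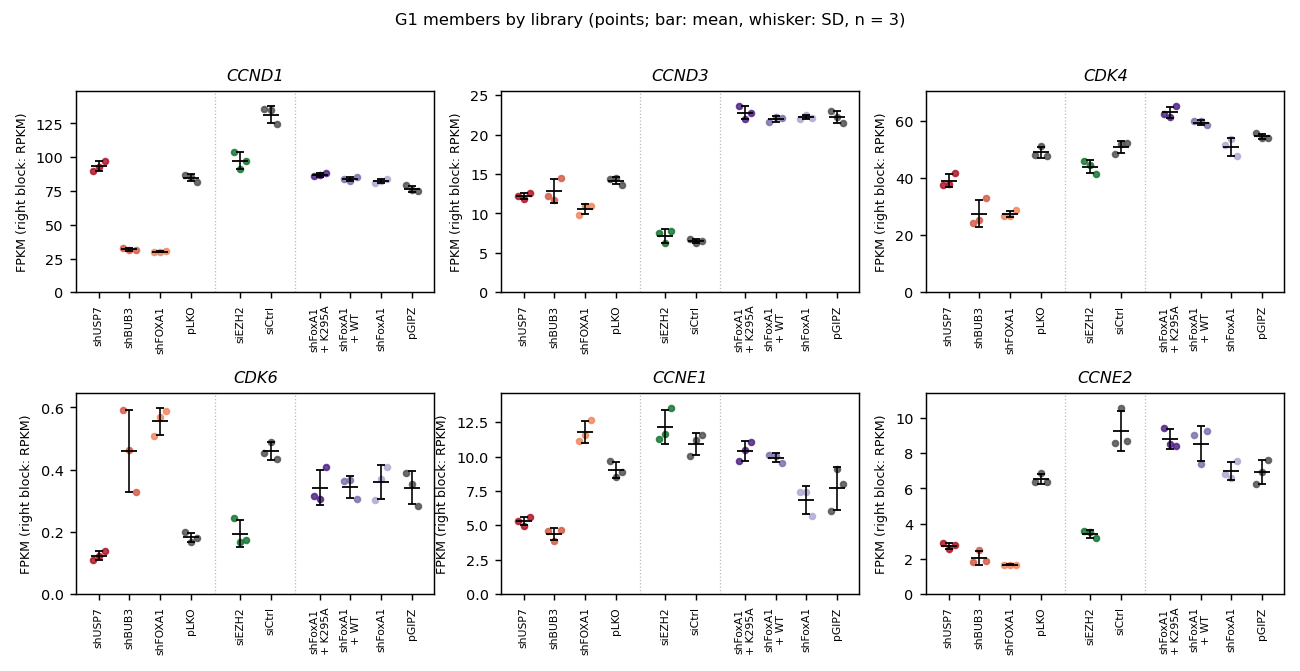
Levels of CCND1, CCND3, CDK4, CDK6, CCNE1 and CCNE2 (vertical axes from 0, FPKM or RPKM as in the pLKO and siRNA or the pGIPZ experiment) in the 10 groups (horizontal axis), with points for libraries, bars for the mean and whiskers for the SD (n = 3). CCND1 in shUSP7 libraries lies at 89.9 to 97.3 FPKM, above the 31.2 to 32.7 FPKM of shBUB3 and 29.6 to 30.9 FPKM of shFOXA1 libraries, and CCNE1 is higher in shFOXA1 than in pLKO libraries while CCNE2 is lower.

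Among transcriptional members, the L-type cyclins and CDK11, which work together in splicing, were higher in shFOXA1 and siEZH2. CCNL2 (chr1:1385711-1399328, minus strand) had 69.5, 69.0 and 68.9 FPKM in shUSP7 libraries, 54.9, 54.8 and 59.2 FPKM in shBUB3 libraries, 110.2, 113 and 117 FPKM in shFOXA1 libraries, against 49.1, 48.6 and 46.9 FPKM in pLKO libraries. CCNL1 had 25.9, 25.2 and 24.1 FPKM in shUSP7 libraries, 23.6, 23.0 and 19.8 FPKM in shBUB3 libraries, 37.3, 37.4 and 37.4 FPKM in shFOXA1 libraries, against 22.5, 23.4 and 22.4 FPKM in pLKO libraries. CCNL2 rose in all 3 knockdowns, by 0.51 in shUSP7, 0.22 in shBUB3 (adjusted p = 0.0016, but 0.021 and not called at a common sum) and 1.21 in shFOXA1 (SE 0.047 each). CCNL1 rose in shFOXA1 by 0.69 (SE 0.061, adjusted p = 1.1e-06) and was 0.13 in shUSP7 and -0.041 in shBUB3, neither called (adjusted p = 0.077 and 0.57). On the siRNA side CCNL2 had 74.2, 85.5 and 89.9 FPKM in siEZH2 libraries, against 39.8, 34.6 and 36.9 FPKM in siCtrl libraries. CCNL1 had 28.0, 31.0 and 30.3 FPKM in siEZH2 libraries, against 19.0, 19.2 and 18.0 FPKM in siCtrl libraries. Neither pair of groups overlapped, and the log2 fold changes were 1.14 and 0.64 (SE 0.086 and 0.070, adjusted p = 2.2e-06 and 2.6e-05).

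CDK11A (chr1:1702730-1724324, minus strand) and CDK11B (chr1:1635227-1659012, minus strand) are near-identical neighbours, so how their reads were split is uncertain. CDK11A had 13.3, 12.2 and 12.4 FPKM in shUSP7 libraries, 14.1, 15.8 and 18.3 FPKM in shBUB3 libraries, 36.8, 40.0 and 38.7 FPKM in shFOXA1 libraries, against 10.7, 11.8 and 11.8 FPKM in pLKO libraries. CDK11B had 12.3, 12.1 and 11.9 FPKM in shUSP7 libraries, 13.8, 14.0 and 16.4 FPKM in shBUB3 libraries, 23.0, 22.9 and 21.9 FPKM in shFOXA1 libraries, against 12.3, 13.4 and 12.9 FPKM in pLKO libraries. Both were highest in shFOXA1, where the log2 fold changes were 1.67 and 0.77 (SE 0.080 and 0.062, adjusted p = 6e-09 and 5.1e-07). The sum of the pair was 61.1 ± 1.6 FPKM in shFOXA1, 30.8 ± 3.5 FPKM in shBUB3 and 24.8 ± 0.76 FPKM in shUSP7 libraries, against 24.3 ± 1.1 FPKM in pLKO libraries (SD, n = 3 each). CDK11A was 0.45 in shBUB3 (adjusted p = 0.00039, 0.27 at a common sum) and 0.14 in shUSP7, not called (adjusted p = 0.16). CDK11B in shBUB3, at 0.18, lost its call without pLKO replicate 1 or 3 (log2 fold changes 0.15 to 0.18, adjusted p 0.055 to 0.092), was 0.11 without the third shBUB3 library and turned to -0.0090 at a common sum. In siEZH2 the pair summed to 29.5 ± 4.4 FPKM, against 16.2 ± 1.1 FPKM in siCtrl libraries, with CDK11A at 1.16 (SE 0.13, adjusted p = 2.6e-05) and CDK11B at 0.36 (adjusted p = 0.0033, 0.60 at a common sum). CDK11A had 14.3, 17.7 and 21.6 FPKM in siEZH2 libraries, against 7.94, 6.98 and 7.21 FPKM in siCtrl libraries.

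The P-TEFb genes differed by knockdown. CCNT1, the main cyclin of CDK9 (chr12:48688458-48716998, minus strand), had 9.66, 10.5 and 10.1 FPKM in shUSP7 libraries, 10.9, 11.6 and 8.36 FPKM in shBUB3 libraries, 4.21, 4.31 and 4.41 FPKM in shFOXA1 libraries, against 9.68, 9.02 and 9.59 FPKM in pLKO libraries. Only the shFOXA1 libraries lay apart, at -0.97 (SE 0.092, adjusted p = 1.9e-06); shUSP7 was 0.088 and shBUB3 0.10, not called (adjusted p = 0.43 and 0.35). Without the third shBUB3 library, the lowest of its group at 8.36 FPKM, shBUB3 was 0.23 (adjusted p = 0.0013). CCNT2, its paralog, was 0.50 in shFOXA1 (SE 0.11, adjusted p = 0.0015), so CCNT1 supplied 27.9% ± 0.35 of the T-type cyclin sum in shFOXA1 libraries, against 55.3% ± 1.4 in pLKO libraries. CDK9 had 24.2, 23.3 and 23.5 FPKM in shUSP7 libraries, 32.1, 30.9 and 33.9 FPKM in shBUB3 libraries, 21.5, 21.9 and 21.3 FPKM in shFOXA1 libraries, against 21.8, 20.8 and 22.3 FPKM in pLKO libraries. It rose in shBUB3 by 0.56 (SE 0.047, adjusted p = 9.6e-07, 0.36 at a common sum), was -0.0052 in shFOXA1 (adjusted p = 0.93), and its call at 0.12 in shUSP7 was lost without pLKO replicate 1 or 2 and without shUSP7 replicate 1, 2 or 3 (log2 fold changes 0.096 to 0.13, adjusted p 0.065 to 0.15) and at a common sum (0.11). In the siRNA experiment CDK9 had 20.7, 19.2 and 21.4 FPKM in siEZH2 libraries, against 19.7, 17.7 and 20.0 FPKM in siCtrl libraries, and CCNT1 had 11.9, 9.85 and 9.05 FPKM in siEZH2 libraries, against 11.7, 12.5 and 11.1 FPKM in siCtrl libraries. Both overlapped, at 0.091 and -0.18 (adjusted p = 0.33 and 0.14).

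CDK12, an elongation kinase, had 10.5, 11.1 and 11.0 FPKM in shUSP7 libraries, 20.2, 20.3 and 12.6 FPKM in shBUB3 libraries, 8.34, 7.73 and 7.66 FPKM in shFOXA1 libraries, against 11.3, 10.9 and 10.4 FPKM in pLKO libraries. It rose in shBUB3 by 0.62 (SE 0.14, adjusted p = 0.0019), a value of 0.84 without the third shBUB3 library, which had 12.6 FPKM, and of 0.44 at a common sum (adjusted p = 0.059). In shFOXA1 it was -0.42 (adjusted p = 0.018), a call lost without pLKO replicate 1 and without shFOXA1 replicate 3 (log2 fold changes -0.40 to -0.39, adjusted p 0.051 to 0.054) and under both scalings (-0.27 and -0.21). CCNK, its cyclin, had 20.6, 21.7 and 20.6 FPKM in shUSP7 libraries, 10.7, 11.2 and 9.23 FPKM in shBUB3 libraries, 23.8, 22.3 and 21.6 FPKM in shFOXA1 libraries, against 16.8, 17.6 and 16.2 FPKM in pLKO libraries, so the kinase and the cyclin moved opposite ways in shBUB3: CCNK fell by 0.65 (SE 0.068, adjusted p = 5.6e-06) and rose in shUSP7 (0.30) and shFOXA1 (0.40, 0.62 at a common sum). For siEZH2, CDK12 had 13.7, 11.4 and 11.2 FPKM in siEZH2 libraries, against 14.1, 14.9 and 12.7 FPKM in siCtrl libraries, overlapping at -0.19 (adjusted p = 0.11). CDK13, its paralog, was 0.59 in siEZH2 (SE 0.088, adjusted p = 0.00022), so that CDK12 supplied 54.5% ± 2.1 of their sum in siEZH2 libraries, against 68.6% ± 2.2 in siCtrl libraries.

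CCNH, cyclin H, the partner of CDK7, had 21.9, 26.8 and 24.8 FPKM in shUSP7 libraries, 29.8, 30.6 and 30.9 FPKM in shBUB3 libraries, 17.6, 19.5 and 18.5 FPKM in shFOXA1 libraries, against 43.3, 43.0 and 40.3 FPKM in pLKO libraries. It fell in shUSP7 (-0.77), shBUB3 (-0.46) and shFOXA1 (-1.15; SE 0.068, adjusted p at most 0.0001). For siEZH2, CCNH had 29.6, 26.2 and 26.3 FPKM in siEZH2 libraries, against 40.8, 47.6 and 48.2 FPKM in siCtrl libraries, a fall of 0.71 (SE 0.085, adjusted p = 4.6e-05, -0.46 at a common sum). Its exons overlap RASA1 on the opposite strand. CDK7 fell in shFOXA1 (-0.57, SE 0.075, adjusted p = 3e-05), was 0.25 in shBUB3 (called, but 0.071 and not called at a common sum), and was not called in shUSP7 (0.15) or siEZH2 (0.018). Of the Mediator kinases, CDK19 had 12.1, 11.4 and 11.7 FPKM in shUSP7 libraries, 26.1, 26.2 and 19.1 FPKM in shBUB3 libraries, 22.4, 22.4 and 23.4 FPKM in shFOXA1 libraries, against 26.4, 25.6 and 24.4 FPKM in pLKO libraries. It fell in shUSP7 by 1.06 (SE 0.097, adjusted p = 2.2e-06) and was -0.11 in shBUB3 and -0.16 in shFOXA1, neither called (adjusted p = 0.35 and 0.17). In siEZH2 the direction was the opposite: CDK19 had 24.6, 21.1 and 21.4 FPKM in siEZH2 libraries, against 12.03, 12.2 and 10.7 FPKM in siCtrl libraries, a rise of 0.89 (SE 0.086, adjusted p = 1.1e-05). CDK8, its paralog, was -0.31 in shUSP7, a call lost without pLKO replicate 2 (log2 fold change -0.29, adjusted p 0.052) and at a common sum (-0.33), and 0.29 in siEZH2, a call lost without siCtrl replicate 3 (log2 fold change 0.26, adjusted p 0.051) and 0.53 at a common sum. CCNC, their cyclin, was called only in shFOXA1 among these 4 (-0.16, adjusted p = 0.012), a call lost without shFOXA1 replicate 1 (log2 fold change -0.13, adjusted p 0.052) and turned to 0.061 at a common sum.

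**Figure D5:**
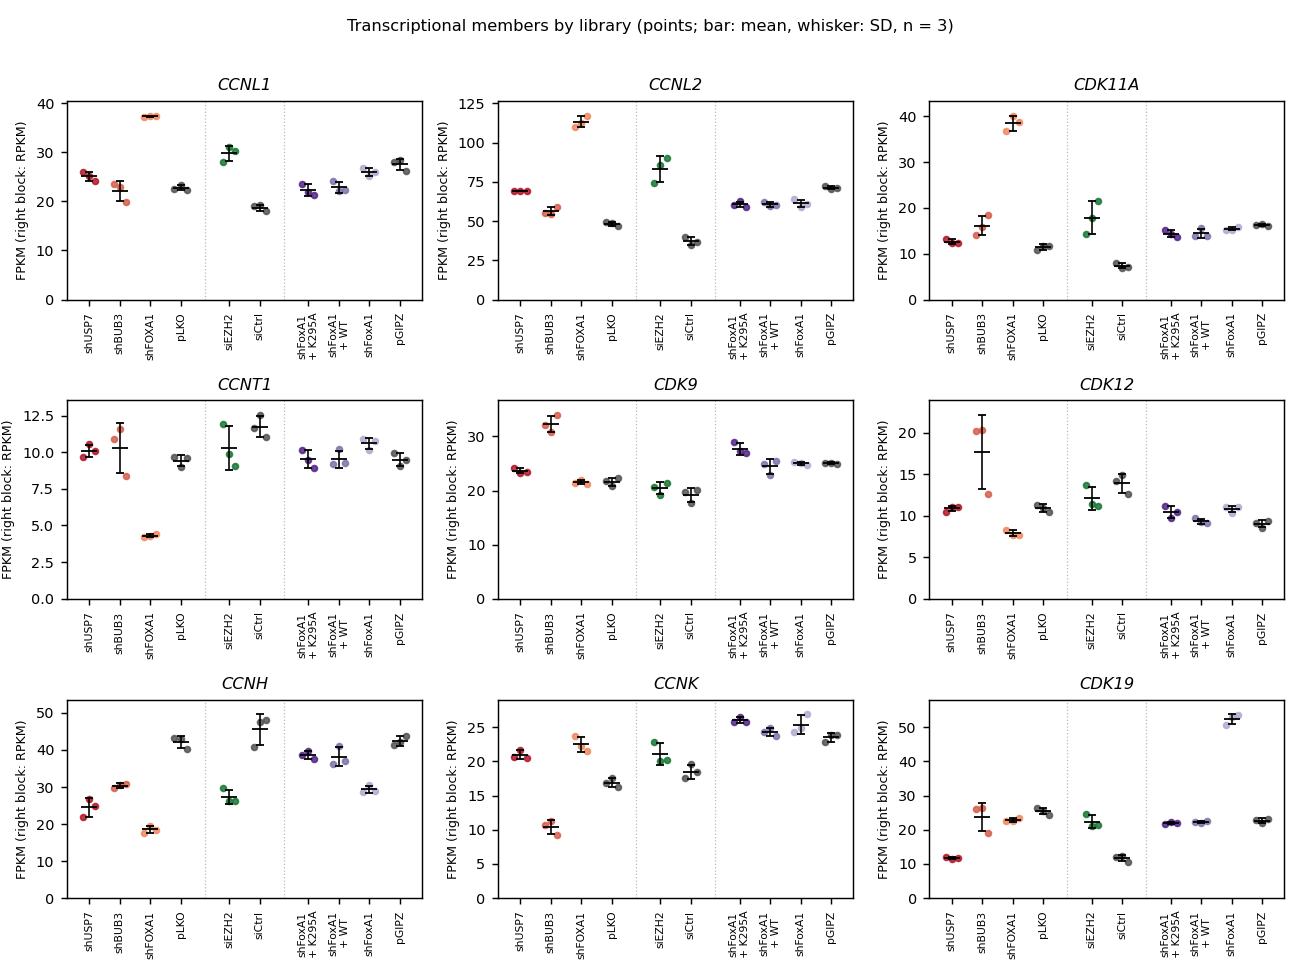
Levels of 9 transcriptional members (CCNL1, CCNL2, CDK11A, CCNT1, CDK9, CDK12, CCNH, CCNK and CDK19; vertical axes from 0, FPKM, or RPKM in the pGIPZ experiment) in the 10 groups (horizontal axis), with points for libraries, bars for the mean and whiskers for the SD (n = 3). Within the pLKO experiment CCNL2 and CDK11A are highest and CCNT1 is lowest in shFOXA1, CCNK is lowest in shBUB3 and CDK19 is lowest in shUSP7; within the pGIPZ experiment CDK19 is highest in shFoxA1. CCNH lies below its control in every knockdown.

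The 10 other members include atypical cyclins and CDKs. Of those tested, 4 of 8 were called in shUSP7, 3 in shBUB3, 6 in shFOXA1 and 4 of 9 in siEZH2, beside 62.2%, 65.2%, 70.3% and 63.3% of all genes called in either direction. The counts of shUSP7, shBUB3 and siEZH2 are thus below the shares of all genes, and that of shFOXA1 is near its share. At a common sum 2 of 8 were lower and 2 higher in shFOXA1, beside 8422 of 12615 genes called. CCNY, cyclin Y, which anchors CDK14 at the plasma membrane, had 9.46, 9.03 and 9.09 FPKM in shUSP7 libraries, 19.8, 19.0 and 20.2 FPKM in shBUB3 libraries, 8.53, 8.09 and 7.76 FPKM in shFOXA1 libraries, against 9.03, 8.98 and 9.38 FPKM in pLKO libraries. It rose in shBUB3 by 1.03 (SE 0.048, adjusted p = 7.5e-09) and fell in siEZH2 by 0.58 (adjusted p = 0.00035, -0.35 at a common sum). CDK14 had 10.2, 10.1 and 10.3 FPKM in shUSP7 libraries, 7.32, 7.34 and 5.16 FPKM in shBUB3 libraries, 2.72, 3.08 and 2.92 FPKM in shFOXA1 libraries, against 6.05, 5.86 and 5.71 FPKM in pLKO libraries. It rose in shUSP7 by 0.70 (adjusted p = 7.4e-05), fell in shFOXA1 by 0.82 (SE 0.10, adjusted p = 1.6e-05) and rose in siEZH2 by 0.79 (SE 0.10, adjusted p = 7e-05), where it had 18.3, 15.8 and 14.1 FPKM in siEZH2 libraries, against 9.15, 9.23 and 8.11 FPKM in siCtrl libraries. CCNG2, cyclin G2, known as a growth-restraining cyclin, had 7.29, 7.52 and 7.99 FPKM in shUSP7 libraries, 9.56, 10.2 and 8.46 FPKM in shBUB3 libraries, 14.8, 16.03 and 16.1 FPKM in shFOXA1 libraries, against 16.7, 17.3 and 18.0 FPKM in pLKO libraries. It fell in shUSP7 (-1.09) and shBUB3 (-0.82; SE 0.067, adjusted p at most 7e-07) and was -0.14 in shFOXA1 (adjusted p = 0.082). In siEZH2 it rose by 0.51 (SE 0.077, adjusted p = 0.00023). CDK5, best known from neurons, had 26.2, 24.7 and 27.1 FPKM in shUSP7 libraries, 27.5, 26.5 and 40.1 FPKM in shBUB3 libraries, 13.8, 10.7 and 12.8 FPKM in shFOXA1 libraries, against 20.8, 21.7 and 20.5 FPKM in pLKO libraries. It was 0.53 in shBUB3 (adjusted p = 0.0041), or 0.35 without the third shBUB3 library at 40.1 FPKM and 0.34 at a common sum, and it fell in shFOXA1 by 0.72 (SE 0.13, adjusted p = 0.00047). CDK20, also called cell cycle-related kinase, had 7.63, 8.78 and 7.55 FPKM in shUSP7 libraries, 5.12, 5.25 and 5.11 FPKM in shBUB3 libraries, 4.04, 3.81 and 3.67 FPKM in shFOXA1 libraries, against 5.28, 5.08 and 5.49 FPKM in pLKO libraries; it rose in shUSP7 by 0.51 (SE 0.062, adjusted p = 2e-05). CDK10, CDK17 and CCNI lay between -0.41 and 0.32 in these 4 comparisons, CDK17 with no call, CDK10 with a call in shFOXA1 lost without pLKO replicate 1 and without shFOXA1 replicate 3 (log2 fold change 0.29, adjusted p 0.063 to 0.065) and of 0.54 at a common sum, and CCNI with calls in shUSP7 and shFOXA1 that were lost at a common sum (-0.35 and -0.18). CDK18 had 0.137 to 0.369 FPKM in shUSP7, 0.225 to 0.246 in shBUB3 and 0.665 to 0.708 in shFOXA1 libraries, against 0.523 to 0.708 FPKM in pLKO libraries, and CCNJ stayed under 0.4 in every library.

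Set directly against each other, the 3 pLKO knockdowns differed at most members. In shUSP7 against shBUB3, 26 of 37 members were called in either direction, beside 65.2% of all genes. In shFOXA1 against shUSP7, 31 were called, beside 70.9%. In shFOXA1 against shBUB3, 28 were called, beside 73.4%. The counts of both contrasts with shBUB3 are near the background share. Without the third shBUB3 library, 30 members were called in shUSP7 against shBUB3 and 31 in shFOXA1 against shBUB3, beside 70.9% and 78.4% of all genes. CCND1 was 1.53 in shUSP7 against shBUB3 and -1.60 in shFOXA1 against shUSP7 (SE 0.047, adjusted p at most 5.5e-10), and -0.072 in shFOXA1 against shBUB3 (adjusted p = 0.18). CCNE1 was 1.02 in shFOXA1 against shUSP7 and 1.26 against shBUB3 (SE 0.075, adjusted p at most 2.3e-07). CCNT1 was -1.06 and -1.07 (the second -0.71 at a common sum), and CDK11A 1.53 and 1.21, in the same 2 contrasts. CCNB1 was 0.62 in shUSP7 against shBUB3 and -1.14 in shFOXA1 against shUSP7. CCNA2 did not pass in any of the 3, with 95% intervals of -0.30 to 0.013, -0.048 to 0.26 and -0.19 to 0.12. Without the third shBUB3 library it was called in shUSP7 against shBUB3 (-0.19, adjusted p = 0.032).

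In the pGIPZ experiment, cell cycle members had a median log2 fold change of -0.11 in shFoxA1 against pGIPZ libraries. Most were higher than in shFoxA1 with either re-expressed FOXA1 form. In shFoxA1 against pGIPZ libraries, 5 of 14 tested cell cycle members were lower and 2 higher (7 lower and 2 higher with median-ratio scaling). Of 15 transcriptional members, 2 were lower and 5 higher (median -0.0016, 2 lower and 3 higher with median-ratio scaling). Of all genes, 24.2% were lower and 25.0% higher. With median-ratio scaling, 3217 of 12568 genes were lower and 3029 higher. In shFoxA1 + WT against shFoxA1 libraries, 12 cell cycle members were higher and none lower (0; median 0.42), and 2 transcriptional members were higher and 3 lower, beside 36.6% higher and 18.9% lower of all genes (median 0.083). In shFoxA1 + K295A against shFoxA1 libraries, 13 cell cycle members were higher and none lower (0; median 0.41), and 5 transcriptional members were higher and 4 lower, beside 38.7% higher and 18.3% lower of all genes (median 0.10). For shFoxA1 + WT, both scalings gave 2 lower and 10 higher in the cell cycle class and 10 lower and 1 higher in the transcriptional class. For shFoxA1 + K295A they gave 0 lower and 10 higher in the cell cycle class and 8 lower and 1 higher in the transcriptional class. Over all 12568 genes tested, median-ratio scaling gave 3297 lower and 3273 higher for shFoxA1 + WT and 3358 and 3267 for shFoxA1 + K295A. A common sum gave 3318 and 3249 of 12573, and 3345 and 3281, in the same order. Against pGIPZ, shFoxA1 + WT had 13 cell cycle members higher and none lower (0; 1 lower and 6 higher with median-ratio scaling), and 4 transcriptional members lower and 1 higher (7 lower and 1 higher), beside 33.7% of all genes higher and 11.8% lower. For shFoxA1 + K295A against pGIPZ, 12 cell cycle members were higher and none lower (0; 0 lower and 7 higher with median-ratio scaling), and 5 transcriptional members were lower and 4 higher (6 lower and 1 higher under both scalings), beside 37.8% higher and 12.8% lower of all genes. Against pGIPZ, median-ratio scaling gave 2448 lower and 2301 higher of 12568 genes for shFoxA1 + WT and 2600 and 2541 for shFoxA1 + K295A. A common sum gave 2118 lower and 3413 higher of 12573 genes for shFoxA1 + K295A. For shFoxA1 + WT against pGIPZ it gave 0 lower and 10 higher cell cycle members, beside 1942 lower and 3135 higher of all genes. These comparisons share libraries with each other. Of the other members tested, 7 of 8 were called in shFoxA1 against pGIPZ, beside 49.2% of all genes (7 with median-ratio scaling, 6 at a common sum). Against shFoxA1, 5 were called in shFoxA1 + K295A and 4 in shFoxA1 + WT (3 each under both scalings), beside 56.9% and 55.5%. Against pGIPZ, 6 were called in shFoxA1 + K295A (2 with median-ratio scaling, 3 at a common sum) and 3 in shFoxA1 + WT (2 and 3), beside 50.5% and 45.5%.

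CCNB1 had 50.1, 50.5 and 50.9 RPKM in shFoxA1 + K295A libraries, 48.1, 51.0 and 48.3 RPKM in shFoxA1 + WT libraries, 26.3, 28.4 and 27.6 RPKM in shFoxA1 libraries, against 39.1, 38.1 and 36.8 RPKM in pGIPZ libraries. CCNA2 had 21.0, 20.8 and 19.9 RPKM in shFoxA1 + K295A libraries, 20.0, 20.2 and 18.4 RPKM in shFoxA1 + WT libraries, 11.4, 11.7 and 10.8 RPKM in shFoxA1 libraries, against 13.1, 11.5 and 12.6 RPKM in pGIPZ libraries. Both re-expression groups lay above pGIPZ as well as above shFoxA1. CCNB1 was -0.46 in shFoxA1 against pGIPZ (SE 0.036, adjusted p = 7.8e-07), while CCNA2 was -0.12 and not called (adjusted p = 0.073). Against shFoxA1, CCNB1 rose by 0.86 in shFoxA1 + K295A and 0.82 in shFoxA1 + WT, and CCNA2 by 0.81 and 0.74 (SE 0.036 and 0.052, adjusted p at most 2.6e-07). Against pGIPZ the log2 fold changes in shFoxA1 + K295A and shFoxA1 + WT were 0.40 and 0.36 for CCNB1 and 0.69 and 0.62 for CCNA2 (adjusted p at most 1.1e-05). CCNB2 had 22.8, 23.3 and 23.8 RPKM in shFoxA1 + K295A libraries, 24.3, 22.0 and 23.7 RPKM in shFoxA1 + WT libraries, 13.7, 15.1 and 13.8 RPKM in shFoxA1 libraries, against 16.5, 15.7 and 17.0 RPKM in pGIPZ libraries. CDK1 had 42.7, 40.4 and 42.8 RPKM in shFoxA1 + K295A libraries, 40.8, 41.4 and 39.0 RPKM in shFoxA1 + WT libraries, 28.1, 27.4 and 28.9 RPKM in shFoxA1 libraries, against 32.1, 31.5 and 32.6 RPKM in pGIPZ libraries. CDC25C had 3.39, 3.41 and 2.99 RPKM in shFoxA1 + K295A libraries, 3.26, 3.86 and 3.70 RPKM in shFoxA1 + WT libraries, 2.03, 1.90 and 2.49 RPKM in shFoxA1 libraries, against 3.06, 2.44 and 2.83 RPKM in pGIPZ libraries. In shFoxA1 against pGIPZ these were -0.20, -0.18 and -0.27; the CDC25C call was lost without pGIPZ replicate 1 or 3 and without shFoxA1 replicate 1 or 2 (log2 fold changes -0.26 to -0.21, adjusted p 0.07 to 0.1). CCNB2 rose by 0.68 and 0.68, CDK1 by 0.56 and 0.51 and CDC25C by 0.45 and 0.56 in shFoxA1 + K295A and shFoxA1 + WT against shFoxA1 (adjusted p at most 0.0012). Against pGIPZ, CCNB2 was 0.48 and 0.48 in the same 2 groups. CCNF had 12.2, 12.6 and 11.5 RPKM in shFoxA1 + K295A libraries, 12.4, 12.2 and 11.5 RPKM in shFoxA1 + WT libraries, 9.35, 8.21 and 7.97 RPKM in shFoxA1 libraries, against 10.3, 10.1 and 9.94 RPKM in pGIPZ libraries. It was -0.23 in shFoxA1 against pGIPZ (adjusted p = 0.0052) and CDC25A 0.30 (SE 0.065, adjusted p = 0.0025). CDC25A had 7.74, 6.91 and 7.72 RPKM in shFoxA1 + K295A libraries, 7.45, 7.06 and 6.82 RPKM in shFoxA1 + WT libraries, 5.55, 6.42 and 6.37 RPKM in shFoxA1 libraries, against 4.46, 4.92 and 4.98 RPKM in pGIPZ libraries, rising by 0.55 in shFoxA1 + K295A and 0.49 in shFoxA1 + WT against pGIPZ.

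CDK2 had 20.9, 20.8 and 20.8 RPKM in shFoxA1 + K295A libraries, 18.3, 21.6 and 20.3 RPKM in shFoxA1 + WT libraries, 16.6, 16.1 and 15.5 RPKM in shFoxA1 libraries, against 15.9, 17.3 and 17.7 RPKM in pGIPZ libraries. CDK4 had 62.3, 61.5 and 65.1 RPKM in shFoxA1 + K295A libraries, 59.8, 59.9 and 58.5 RPKM in shFoxA1 + WT libraries, 51.4, 53.8 and 47.7 RPKM in shFoxA1 libraries, against 55.7, 54.0 and 54.0 RPKM in pGIPZ libraries. Neither was called in shFoxA1 against pGIPZ (-0.074 and -0.099, adjusted p = 0.31 and 0.058). Against shFoxA1 they were 0.36 and 0.30 in shFoxA1 + K295A and 0.30 and 0.22 in shFoxA1 + WT (adjusted p at most 0.00071); CDK4 was 0.19 and 0.13 with median-ratio scaling. CCNE1 had 9.65, 10.5 and 11.1 RPKM in shFoxA1 + K295A libraries, 10.1, 10.0 and 9.55 RPKM in shFoxA1 + WT libraries, 7.43, 7.43 and 5.70 RPKM in shFoxA1 libraries, against 6.01, 9.09 and 8.02 RPKM in pGIPZ libraries. CCNE2 had 9.46, 8.52 and 8.44 RPKM in shFoxA1 + K295A libraries, 9.03, 7.39 and 9.24 RPKM in shFoxA1 + WT libraries, 6.82, 6.62 and 7.58 RPKM in shFoxA1 libraries, against 6.23, 6.95 and 7.63 RPKM in pGIPZ libraries. CCNE1 was not called in shFoxA1 (-0.14, adjusted p = 0.37) and rose by 0.54 and 0.48 in shFoxA1 + K295A and shFoxA1 + WT against shFoxA1 (adjusted p at most 0.0055). CCNE2 was 0.015 in shFoxA1; its 0.29 in shFoxA1 + K295A was lost without shFoxA1 + K295A replicate 1 (log2 fold change 0.25, adjusted p 0.055), its 0.25 in shFoxA1 + WT without shFoxA1 + WT replicate 1 or 3 and without shFoxA1 replicate 1 or 2 (log2 fold changes 0.20 to 0.24, adjusted p 0.076 to 0.11), and both under either scaling (0.19 and 0.17 with median-ratio scaling). CCND1 had 85.8, 86.6 and 88.2 RPKM in shFoxA1 + K295A libraries, 83.6, 82.1 and 85.7 RPKM in shFoxA1 + WT libraries, 80.9, 82.7 and 83.8 RPKM in shFoxA1 libraries, against 79.1, 75.7 and 74.9 RPKM in pGIPZ libraries. It was 0.11 in shFoxA1 against pGIPZ (SE 0.028, adjusted p = 0.0072) and 0.023 in shFoxA1 + WT against shFoxA1 (adjusted p = 0.52). In shFoxA1 + K295A against shFoxA1, its 0.074 was lost without shFoxA1 + K295A replicate 1, 2 or 3 and without shFoxA1 replicate 1 or 2 (log2 fold changes 0.060 to 0.083, adjusted p 0.051 to 0.13) and was -0.037 with median-ratio scaling. CCND3 had 23.6, 22.0 and 22.7 RPKM in shFoxA1 + K295A libraries, 21.6, 22.2 and 22.1 RPKM in shFoxA1 + WT libraries, 22.0, 22.5 and 22.1 RPKM in shFoxA1 libraries, against 23.0, 22.2 and 21.5 RPKM in pGIPZ libraries. Without rescaling, all 4 groups overlapped, with log2 fold changes of -0.016 to 0.048 over the 6 contrasts and no call. Under both scalings CCND1 and CCND3 were the 2 cell cycle members called lower in shFoxA1 + WT against shFoxA1. With median-ratio scaling CCND3 was also called lower in shFoxA1 + WT against pGIPZ. CDK6 had 0.314, 0.304 and 0.407 RPKM in shFoxA1 + K295A libraries, 0.363, 0.368 and 0.304 RPKM in shFoxA1 + WT libraries, 0.302, 0.371 and 0.407 RPKM in shFoxA1 libraries, against 0.388, 0.353 and 0.284 RPKM in pGIPZ libraries, with no call without the filter.

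Of the transcriptional members, CDK19 and CCNH reversed between shFoxA1 and re-expression. CDK19 had 21.8, 22.3 and 22.0 RPKM in shFoxA1 + K295A libraries, 22.2, 21.9 and 22.5 RPKM in shFoxA1 + WT libraries, 50.7, 52.9 and 53.4 RPKM in shFoxA1 libraries, against 23.0, 21.9 and 23.1 RPKM in pGIPZ libraries. It rose in shFoxA1 against pGIPZ by 1.18 (SE 0.032, adjusted p = 5.7e-11) and was -1.21 and -1.20 in shFoxA1 + K295A and shFoxA1 + WT against shFoxA1, back at -0.037 and -0.026 against pGIPZ. CCNH had 38.7, 39.6 and 37.5 RPKM in shFoxA1 + K295A libraries, 36.3, 41.1 and 37.1 RPKM in shFoxA1 + WT libraries, 28.6, 30.5 and 28.98 RPKM in shFoxA1 libraries, against 41.3, 42.1 and 43.9 RPKM in pGIPZ libraries. It fell in shFoxA1 by 0.52 (SE 0.047, adjusted p = 2.5e-06) and rose by 0.38 and 0.36 on re-expression of K295A and WT (adjusted p at most 3.8e-05). Against pGIPZ, CCNH was -0.15 in shFoxA1 + WT, a call lost without shFoxA1 + WT replicate 1 or 3 and without pGIPZ replicate 3 (log2 fold changes -0.13 to -0.12, adjusted p 0.07 to 0.082), and -0.13 in shFoxA1 + K295A, a call lost without shFoxA1 + K295A replicate 1 or 3 and without pGIPZ replicate 2 or 3 (log2 fold changes -0.14 to -0.11, adjusted p 0.06 to 0.11); median-ratio scaling gave -0.26 and -0.25. CCNG2 of the other members followed CDK19: it had 17.0, 16.4 and 15.2 RPKM in shFoxA1 + K295A libraries, 15.1, 14.2 and 15.2 RPKM in shFoxA1 + WT libraries, 25.0, 24.7 and 26.1 RPKM in shFoxA1 libraries, against 15.7, 15.2 and 15.3 RPKM in pGIPZ libraries, a rise of 0.68 in shFoxA1 against pGIPZ and values of -0.61 and -0.73 in shFoxA1 + K295A and shFoxA1 + WT against shFoxA1 (SE 0.044, adjusted p at most 2.9e-07). CDK14 ran the other way. It had 4.64, 4.75 and 4.19 RPKM in shFoxA1 + K295A libraries, 3.86, 4.52 and 4.57 RPKM in shFoxA1 + WT libraries, 2.82, 2.72 and 2.69 RPKM in shFoxA1 libraries, against 3.96, 3.72 and 3.70 RPKM in pGIPZ libraries, at -0.36 in shFoxA1 against pGIPZ, 0.56 in shFoxA1 + K295A and 0.50 in shFoxA1 + WT against shFoxA1 (adjusted p at most 0.0007). CCNY had 10.7, 11.9 and 12.4 RPKM in shFoxA1 + K295A libraries, 12.04, 11.1 and 11.5 RPKM in shFoxA1 + WT libraries, 10.2, 9.40 and 10.4 RPKM in shFoxA1 libraries, against 8.37, 8.53 and 7.79 RPKM in pGIPZ libraries. It rose against pGIPZ in all 3 groups, by 0.46 in shFoxA1 + K295A, 0.44 in shFoxA1 + WT and 0.25 in shFoxA1. CDK17 had 2.86, 1.99 and 2.86 RPKM in shFoxA1 libraries, against 1.93, 1.79 and 1.88 RPKM in pGIPZ libraries. It was 0.31 in shFoxA1 against pGIPZ, a call lost without pGIPZ replicate 2 or 3 and without shFoxA1 replicate 1 or 3 (log2 fold changes 0.24 to 0.31, adjusted p 0.056 to 0.1).

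The L-type cyclins, which rose in the FOXA1 knockdown with the pLKO vector, were not called higher here. CCNL1 had 23.6, 21.9 and 21.3 RPKM in shFoxA1 + K295A libraries, 24.2, 22.1 and 22.4 RPKM in shFoxA1 + WT libraries, 26.8, 25.2 and 26.0 RPKM in shFoxA1 libraries, against 28.1, 28.4 and 26.2 RPKM in pGIPZ libraries. CCNL2 had 60.2, 62.6 and 59.2 RPKM in shFoxA1 + K295A libraries, 62.3, 59.5 and 60.0 RPKM in shFoxA1 + WT libraries, 63.8, 59.2 and 60.9 RPKM in shFoxA1 libraries, against 72.4, 70.2 and 71.1 RPKM in pGIPZ libraries. CCNL2 fell in shFoxA1 against pGIPZ by 0.21 (SE 0.033, adjusted p = 0.00021), and CCNL1 was -0.082 (adjusted p = 0.19). Against pGIPZ, CCNL1 was -0.30 and -0.26 and CCNL2 -0.23 and -0.23 in shFoxA1 + K295A and shFoxA1 + WT (adjusted p at most 0.0012). CDK11A had 15.2, 14.2 and 13.7 RPKM in shFoxA1 + K295A libraries, 14.0, 15.5 and 13.8 RPKM in shFoxA1 + WT libraries, 15.3, 15.2 and 15.9 RPKM in shFoxA1 libraries, against 16.3, 16.4 and 15.96 RPKM in pGIPZ libraries. It was -0.065 in shFoxA1 against pGIPZ, not called. It was -0.17 in shFoxA1 + K295A against pGIPZ, a call lost without shFoxA1 + K295A replicate 3 (log2 fold change -0.13, adjusted p 0.06), and -0.16 in shFoxA1 + WT against pGIPZ, a call lost without shFoxA1 + WT replicate 1 or 3 and without pGIPZ replicate 2 (log2 fold changes -0.15 to -0.13, adjusted p 0.057 to 0.075). With median-ratio scaling these were -0.28 and -0.26, and CCNL2 in shFoxA1 + K295A against pGIPZ was -0.35. CDK9 had 28.9, 27.2 and 26.8 RPKM in shFoxA1 + K295A libraries, 24.9, 22.9 and 25.5 RPKM in shFoxA1 + WT libraries, 25.2, 25.2 and 24.7 RPKM in shFoxA1 libraries, against 25.1, 25.1 and 24.9 RPKM in pGIPZ libraries. CDK12 had 11.2, 9.77 and 10.4 RPKM in shFoxA1 + K295A libraries, 9.70, 9.19 and 9.15 RPKM in shFoxA1 + WT libraries, 11.1, 10.4 and 11.1 RPKM in shFoxA1 libraries, against 9.17, 8.55 and 9.33 RPKM in pGIPZ libraries. CCNT1 had 10.2, 9.45 and 8.95 RPKM in shFoxA1 + K295A libraries, 9.16, 10.2 and 9.23 RPKM in shFoxA1 + WT libraries, 10.9, 10.2 and 10.7 RPKM in shFoxA1 libraries, against 9.93, 9.05 and 9.50 RPKM in pGIPZ libraries. CDK12 rose in shFoxA1 against pGIPZ by 0.24 (SE 0.053, adjusted p = 0.0026) and fell in shFoxA1 + WT against shFoxA1 by 0.19 (adjusted p = 0.0084). CDK9 was -0.0016 in shFoxA1; its 0.14 in shFoxA1 + K295A against shFoxA1 was lost without shFoxA1 + K295A replicate 1 (log2 fold change 0.11, adjusted p 0.056) and under both scalings (0.030). CCNT1 was 0.15 in shFoxA1 against pGIPZ, a call lost without pGIPZ replicate 2 or 3 and without shFoxA1 replicate 1 or 3 (log2 fold changes 0.12 to 0.15, adjusted p 0.095 to 0.16) and with median-ratio scaling (0.14). CCNT2 had 7.01, 6.48 and 6.76 RPKM in shFoxA1 + K295A libraries, 7.18, 7.62 and 7.46 RPKM in shFoxA1 + WT libraries, 7.28, 7.93 and 8.23 RPKM in shFoxA1 libraries, against 8.14, 7.44 and 7.53 RPKM in pGIPZ libraries. It was -0.18 in shFoxA1 + K295A against shFoxA1 (adjusted p = 0.011); against pGIPZ its -0.17 was lost without shFoxA1 + K295A replicate 2 and without pGIPZ replicate 1 (log2 fold changes -0.14 to -0.13, adjusted p 0.074 to 0.077). Median-ratio scaling gave -0.28 and -0.28 for these 2 contrasts.

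No member passed the test between the K295A and wild-type forms. In shFoxA1 + K295A against shFoxA1 + WT libraries, 0 of 37 members were called by limma, with 6 at an unadjusted p under 0.05 and a lowest adjusted p of 0.17, and 0 were called under either scaling. Over all genes, 0.0955% were lower and 0.0876% higher. The 95% intervals of the difference ran no further than -0.31 for CDC25C at the low end and 0.33 for CCNE1 at the high end, and 30 of 37 differences were positive. Neither count, 6 or 30, has a share of all genes beside it, so no trend is read from them. The median difference was 0.050 for cell cycle members and 0.034 for transcriptional members, against 0.018 for all genes. With median-ratio scaling these medians were 0.033, 0.018 and 0.0037 in the same order.

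Most regulators around the cell cycle CDKs were lower too. Of 24 such genes outside the member set, 17 were lower and 5 higher in shUSP7, 15 and 3 in shBUB3, 20 and 2 in shFOXA1, each against pLKO, and 15 and 4 in siEZH2 against siCtrl. Their median log2 fold changes were -0.70, -0.96, -1.12 and -0.63 in the same order, beside medians of -0.019, 0.0071, -0.15 and -0.16 over all genes tested. The shares of all genes lower and higher, against which these counts and those of the lists that follow are read, were 33.0% and 29.1% in shUSP7, 32.0% and 33.3% in shBUB3, 45.1% and 25.2% in shFOXA1 and 43.0% and 20.3% in siEZH2. MYBL2, the B-Myb subunit of the complex that switches on mitotic genes, was -3.58, -3.23 and -3.47 in the 3 pLKO knockdowns and -2.01 in siEZH2. FOXM1, a forkhead activator of the same genes, was -2.95, -2.73, -3.16 and -1.67, and E2F1, an activator of S phase genes, -2.08, -1.90, -2.70 and -1.61, in the same order (adjusted p at most 4.4e-07). CKS1B, a small CDK-binding subunit, and CDC20, which directs the destruction of mitotic cyclins, were -2.36 and -3.47 in shUSP7, -2.51 and -4.03 in shBUB3, -2.10 and -3.76 in shFOXA1, and -0.76 and -0.79 in siEZH2. In the pGIPZ experiment 16 of the 24 were higher and 1 lower in shFoxA1 + K295A against shFoxA1, beside 38.7% and 18.3% of all genes. For shFoxA1 + WT against shFoxA1 the counts were 15 and 1, beside 36.6% and 18.9%. In shFoxA1 against pGIPZ 3 were higher and 5 lower, or 12.5% and 20.8%, below the 25.0% and 24.2% of all genes.

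The CDK inhibitors moved in both directions. CDKN1A, which encodes p21, a broad inhibitor of cyclin and CDK pairs, had a lowest, median and highest value of 894, 897 and 920.4 FPKM in shUSP7, 670.3, 712 and 773 FPKM in shBUB3 and 563, 569 and 579.5 FPKM in shFOXA1 libraries, against 90.2, 94.2 and 95.8 FPKM in pLKO libraries. It rose by 3.26, 2.93 and 2.60 (adjusted p at most 7.7e-11). In siEZH2, CDKN1A had 86.8, 87.2 and 94.2 FPKM in siEZH2 libraries, against 197, 209 and 209 FPKM in siCtrl libraries, a fall of 1.19 (adjusted p = 3e-07). CDKN1A was -0.26 in shFoxA1 against pGIPZ and -0.64 and -0.54 in shFoxA1 + K295A and shFoxA1 + WT against shFoxA1. The other CIP and KIP genes showed smaller or mixed changes. CDKN1B (p27) was 0.13, -0.44 and -0.25 in shUSP7, shBUB3 and shFOXA1 (0.12 in shUSP7 and -0.036 in shFOXA1 at a common sum, not called), and CDKN1C (p57) was 1.68 in shFOXA1 (adjusted p = 3e-08). Of the INK4 genes, CDKN2B, the CDK4 and CDK6 inhibitor p15, was 3.48 in shFOXA1 and 0.93 in shUSP7, both called, and -0.011 in shBUB3, not called. CDKN2C (p18) was -1.77, -1.12 and -1.93, CDKN2A (p16 and p14ARF) -1.82, -1.49 and -1.29, and CDKN3, a phosphatase acting on CDKs, -2.97, -2.40 and -3.35 in shUSP7, shBUB3 and shFOXA1 (adjusted p at most 1.1e-06). CDKN2D (p19) was 0.56 in shBUB3 and -0.71 in shFOXA1. In all, of 8 inhibitors 4 were lower and 3 higher in shUSP7 (5 and 2 at a common sum), 4 and 2 in shBUB3 and 5 and 3 in shFOXA1, and of 6 tested 5 were lower and 1 higher in siEZH2. Their medians were -0.28, -0.32, -0.48 and -0.83 in the same order.

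Partners of the transcriptional kinases were called in both directions. Of 22 tested genes, 6 were lower and 8 higher in shUSP7, 6 and 5 in shBUB3 (10 and 4 at a common sum), 9 and 8 in shFOXA1 (5 and 9 at a common sum) and 12 and 1 in siEZH2 (9 and 3 with median-ratio scaling, 8 and 5 at a common sum). As shares lower and higher these are 27.3% and 36.4% in shUSP7, 27.3% and 22.7% in shBUB3, 40.9% and 36.4% in shFOXA1 and 54.5% and 4.55% in siEZH2, beside the shares of all genes given above. HEXIM1, which holds P-TEFb inactive, was 0.59 in shUSP7, 0.76 in shFOXA1, -0.58 in siEZH2 and 0.74 in shFoxA1 against their controls, and -0.035 in shBUB3, not called. MNAT1, the assembly factor of CDK7 and cyclin H, was -0.67 in shFOXA1 and -1.30 in siEZH2, the direction of CCNH (adjusted p at most 2.2e-05). SUPT5H, a target of CDK9 on the polymerase, rose in shUSP7 (0.48), shBUB3 (0.67) and shFOXA1 (0.47). In shFoxA1 against pGIPZ, 12 partners were higher and 1 lower, beside 25.0% and 24.2% of all genes; in shFoxA1 + K295A 6 were higher and 6 lower (4 and 9 under both scalings) and in shFoxA1 + WT 5 and 8 (3 and 10), each against shFoxA1, beside 38.7% and 18.3% and 36.6% and 18.9% of all genes for the 2 comparisons. Of 18 further cyclins and CDKs outside the set, 6 were tested in the pLKO experiment, 5 in the siRNA experiment and 6 in the pGIPZ experiment. In the pLKO experiment 2 were lower and 1 higher in shUSP7, 1 and 4 in shBUB3 (1 and 2 at a common sum) and 2 and 2 in shFOXA1 (1 and 4 under both scalings), and in siEZH2 3 were lower and 0 higher. CDK16 was -0.37 in shUSP7 and 0.33 in shBUB3, and CCNG1, cyclin G1, 0.22 in shUSP7 and 0.32 in shBUB3, the second 0.12 and not called at a common sum.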

How the data were processed

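Total RNA of 30 LNCaP libraries was prepared with the NEBNext Ultra RNA kit and sequenced by Illumina HiSeq, per the labels' protocols. STAR and the build hg38 are named in the submitters' processing notes; the counter, the annotation and every version were not given in the sources used here. The authors deposited FPKM in one table (pLKO and siRNA) and RPKM in another (pGIPZ), both scaled by gene length and library total, so read totals and depth are unknown and no counting interval is given. Of 26475 genes per table, 32 had no values. Values were not compared between tables.

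The members and all gene lists were chosen with earlier results of these data known. Values were put on log2(value + 1). Genes at 1 or more in at least 3 libraries were fitted with limma 3.58.1 in R 4.3.3 (trend, moderated, two-sided), once per experiment over all its groups, with Benjamini-Hochberg adjustment over all genes and a threshold of 0.05; 13 contrasts were made. Tables and figures used Python 3.11.15, pandas 2.3.3 and matplotlib 3.10.9. The script was tested on simulated data. The genes named with values by library were 16 fixed members plus, in each comparison with a control, the 4 lowest and 4 highest log2 fold changes among called members whose libraries did not overlap. Alternatives were median-ratio scaling, a common sum per library, a pseudocount of 0.1, no filter, 2 groups alone, leaving out each library in turn and a replicate block; the values without the third shBUB3 library were singled out from these after seeing the data. Gene positions are from GENCODE 29, where an exon of 22 of the 41 members is overlapped by another gene, for 19 of them on the opposite strand; the labels do not say whether the kit kept strand, so those reads cannot be told apart.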

Additional observations from a re-analysis of the deposited data

Results flagged for a closer look

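9 members were called in opposite directions in the 2 FOXA1 knockdowns, with each group's 3 libraries all on opposite sides of their own control. That is 24.3% of the 37 members tested in both, beside 1169 of 12042 genes, or 9.71%, on the same criteria. The values are log2 fold changes by limma. They come from separate tables and vectors, and the difference between them was not tested. On the pLKO and the pGIPZ side, CCND1 was -1.46 and 0.11, CCNL2 1.21 and -0.21, and CCNT1 -0.97 and 0.15, the last with a pGIPZ call lost without pGIPZ replicate 2 or 3 and without shFoxA1 replicate 1 or 3 (log2 fold changes 0.12 to 0.15, adjusted p 0.095 to 0.16). CDC25A, a CDK-activating phosphatase, was -1.39 and 0.30, and CDK5 -0.72 and 0.22. CDK12 was -0.42 and 0.24, with a pLKO call lost without pLKO replicate 1 and without shFOXA1 replicate 3 (log2 fold changes -0.40 to -0.39, adjusted p 0.051 to 0.054). CCNY was -0.15 and 0.25, with a pLKO call lost without pLKO replicate 3 and without shFOXA1 replicate 3 (log2 fold changes -0.13 to -0.12, adjusted p 0.057 to 0.063). CCNI, cyclin I, was -0.41 and 0.08, with a pGIPZ call lost without pGIPZ replicate 2 or 3 and without shFoxA1 replicate 2 or 3 (log2 fold changes 0.059 to 0.073, adjusted p 0.071 to 0.11). CDK10 was 0.32 and -0.13, with calls lost without pLKO replicate 1 and without shFOXA1 replicate 3 (log2 fold change 0.29, adjusted p 0.063 to 0.065) on the pLKO side and without pGIPZ replicate 1 (log2 fold change -0.098, adjusted p 0.053) on the pGIPZ side. At a common sum per library the pLKO calls of CCNI, CCNY and CDK12 and the pGIPZ call of CDK10 were lost as well, and CCNY turned to 0.054. With median-ratio scaling the pLKO calls of CCNY (-0.0025) and CDK12 (-0.27) and the pGIPZ call of CCNT1 (0.14) were lost. The shares of opposite calls were not recomputed under these settings.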

How the results depend on the processing

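Over 305 called member values in 13 contrasts, a pseudocount of 0.1 kept direction and call for 305, a fit of 2 groups alone kept 264 with 15 no longer called (26 had no such fit, 24 of them because siEZH2 and siCtrl are already fitted alone), no filter on low values kept 289 with 16 no longer called, median-ratio scaling kept 257 with 46 no longer called and 2 reversed, and a common sum per library kept 245 with 45 no longer called and 15 reversed. Over all single-library omissions, 1645 values kept their call, 176 lost it and 0 reversed, and 9 were under the filter. These counts of members moved. Of the transcriptional members, in shUSP7 against pLKO 7 became 11 with median-ratio scaling, 4 at a common sum and 11 with 2 groups alone. The 2 groups alone called 9030 of 11987 genes, against 7784 of 12524 in the main fit. Transcriptional members called in shBUB3 against pLKO went from 8 to 4 at a common sum. In shFoxA1 + WT against shFoxA1 their 5 became 11 under both scalings and 4 to 8 without single libraries. The 8 came without WT replicate 2, beside 6380 of 12520 genes. In shFoxA1 + WT against pGIPZ their 5 became 8 with median-ratio scaling and 3 to 5 without single libraries. The 3 came without WT replicate 1 or 3, beside 5106 of 12520 and 5056 of 12528 genes. Of the cell cycle members, 13 in shFoxA1 + WT and 12 in shFoxA1 + K295A against pGIPZ both became 7 with median-ratio scaling. The cause of these moves was not tested. The reversed values at a common sum were, in shFOXA1 against pLKO, 0.061 for CCNC and 0.054 for CCNY; in shFOXA1 against shUSP7, 0.016 for CCNC, 0.025 for CCND3, 0.055 for CCNY and 0.10 for CDK9; in shFOXA1 against shBUB3, 0.17 for CCNC, 0.14 for CCND3 (adjusted p = 0.026 by limma), 0.076 for CCNE2, 0.017 for CCNF, 0.00049 for CDK20 and 0.16 for CDK8; and -0.0090 for CDK11B in shBUB3 against pLKO, 0.044 for CDK4 in siEZH2 against siCtrl and -0.036 for CCND1 in shFoxA1 + K295A against shFoxA1. With median-ratio scaling CCNC in shFOXA1 against pLKO was 0.00049 and CCND1 in shFoxA1 + K295A against shFoxA1 -0.037.

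Replicate numbers did not pair the samples: deviations of same-numbered samples from their group means correlated at -0.18 to 0.13, and no contrast had all 3 pairs over 0.1. In shUSP7 against shBUB3, 3 samples correlated best with their own number, a hint from the data and not from the design. With the replicate number as a block, 299 of 305 called values kept their call and 6 lost it. Cell cycle members called under the block numbered 13 in shUSP7, 13 in shBUB3, 14 in shFOXA1 and 12 in siEZH2, and transcriptional members 6, 8, 11 and 8 in the same order. Over all genes the block gave 7705, 8103 and 8731 calls of 12524 in the pLKO knockdowns and 7393 of 11908 in siEZH2. The cell cycle counts of the pLKO knockdowns include CDC25C, which had to differ.

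The FPKM and RPKM tables hold no read totals, so the precision of members near or under 1 (CCND2, CCNJ, CDK6, CDK18 and CDC25C in the pLKO knockdowns) is limited by a depth that is not known. CDK11A and CDK11B rest on how reads of near-identical copies were shared.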
